A study of Mus musculus with 4 samples.

Results

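The peroxiredoxin and thioredoxin system was followed through 10 genes in mouse epididymal adipose tissue: the peroxiredoxins Prdx1 to Prdx6, the thioredoxins Txn1 and Txn2, the thioredoxin reductase Txnrd1 and the sulfiredoxin Srxn1. They were taken by gene symbol as 10 of the 24421 genes in the deposited matrices, and all 10 were among the 14106 genes that passed the filter on low values. The system was picked because Prdx1 and Srxn1 were sharply lower in the weight-cycled libraries, so the measured difference between the groups is part of how it was chosen. The differences of the 10 genes are therefore given as a description, with standard errors (SE) and without p-values.

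The samples were 4 RNA libraries from male, wild-type (WT) C57BL/6J mice, a strain known to carry a deletion in Nnt, the mitochondrial transhydrogenase gene. The 2 control libraries (Ctrl) came from mice given a high-fat diet (HFD) without a break for 14 weeks, starting when they were 10 weeks old. The 2 weight-cycling libraries (WC1) came from mice that started HFD when they were 8 weeks old, had 8 weeks of it, then 2 weeks of standard diet (SD) and 6 more weeks of HFD. HFD lasted 14 weeks in all in either group, and the mice were 24 weeks old at the end, but the age at which HFD began differed along with the diet and cannot be told apart from it. The comparison asked what the SD interval left behind in the fat pad after HFD was resumed. The labels do not say whether the libraries of a group came from separate animals or from pools, so the spread between them may be partly technical.

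Peroxiredoxins are thiol enzymes that reduce hydrogen peroxide and organic peroxides. Prdx1 and Prdx2 act mainly in the cytosol, Prdx3 in mitochondria, Prdx4 in the endoplasmic reticulum, Prdx5 in several compartments, and Prdx6 is the family member with a single catalytic cysteine. Most oxidised peroxiredoxins are returned to the reduced form by thioredoxin, which thioredoxin reductase, a selenoprotein, reduces with electrons from NADPH. Sulfiredoxin repairs peroxiredoxins whose catalytic cysteine has been overoxidised. Several genes of the system, Srxn1, Prdx1, Txn1 and Txnrd1 among them, are known targets of NRF2, the transcription factor that answers oxidative and electrophilic stress.

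The stretches upstream of Prdx1 and Srxn1 are shown because these genes had the lowest fold changes of the 10. The sequences are from the RefSeq promoter table (GRCm38.p6, the same build as mm10), read 5′ to 3′ on the plus strand, which carries both genes. Each ends at the base before the start of the gene in GENCODE M21, so that both lie in the 5′ flank and outside the annotated exons. Capitals mark matches to the AP-1 core TGANTCA, to the ARE core TGACNNNGC, and to TGANTCAGC, an extended form of the AP-1 core. That form occurs in antioxidant response elements (ARE), but the printed Srxn1 stretch holds no match to the ARE core itself. The Prdx1 stretch lies at chr4:116685349-116685543 and the Srxn1 stretch at chr2:152105274-152105515.
Prdx1: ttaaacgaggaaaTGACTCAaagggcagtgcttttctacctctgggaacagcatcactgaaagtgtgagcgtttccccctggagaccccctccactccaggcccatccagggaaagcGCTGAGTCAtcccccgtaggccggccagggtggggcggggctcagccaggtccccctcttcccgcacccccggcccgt
Srxn1: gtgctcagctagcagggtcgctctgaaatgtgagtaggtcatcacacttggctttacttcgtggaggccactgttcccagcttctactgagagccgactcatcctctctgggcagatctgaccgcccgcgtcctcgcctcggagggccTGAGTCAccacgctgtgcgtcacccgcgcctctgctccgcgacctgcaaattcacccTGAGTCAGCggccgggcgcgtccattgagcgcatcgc

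Motifs were searched on both strands in promoter windows of 300 bases, 250 before and 50 after the RefSeq start. A window was found for 9 of the 10 genes and none for Prdx6, and Txnrd1 had 3 windows, which gave 11. The extended match TGANTCAGC occurred in the Prdx1 window, on the minus strand 133 to 125 bases before the RefSeq start, and in the Srxn1 window, on the plus strand 45 to 37 bases before it. It was in no window of the other 7 genes, and 1.19% of the 32851 windows in the table held it. Every such match also holds the AP-1 core, of which Prdx1 and Srxn1 had 2 matches each, against 7.81% of all windows with at least 1. The ARE core matched the same bases in Prdx1, a place 28 to 36 bases after the RefSeq start of Srxn1, and 1 window of Txnrd1, at chr10:82858956-82859255, 92 to 84 bases before the start. It occurred in 12.4% of all windows. GC boxes, GGGCGG, were in 9 of the 11 windows and in 35.7% of all, and TATAAA was in 3 of the 11 and in 13.6% of all. CCAAT was in 3 of the 11 and in 37.4% of all. The motifs were chosen after the expression values were seen, and a match is a run of letters, not evidence of binding.

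**Figure D1:**
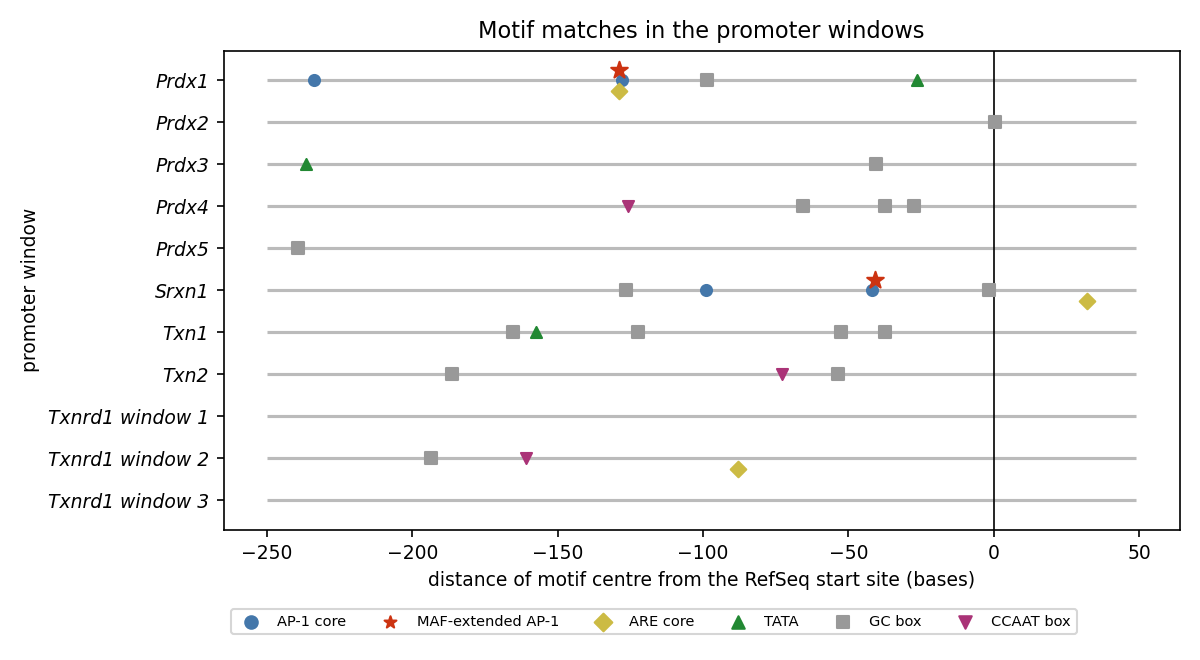
Positions of motif matches in the 11 promoter windows of the 9 genes with an entry. The horizontal axis is the distance in bases from the RefSeq start site and each symbol is a motif. The extended AP-1 match is in the Prdx1 and Srxn1 windows and in no other of the 11.

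Prdx1 (chr4:116685544-116700822, plus strand) had the lowest fold change of the 10 genes. Its values were 4519 and 3696 CPM, the read count scaled to the size of the library, in Ctrl 1 and Ctrl 2, compared to 797 and 626 CPM in WC1 1 and WC1 2. The lower Ctrl library was thus far above the higher WC1 library. The mean was 4108 ± 582 CPM (SD, n = 2) in Ctrl and 712 ± 121 CPM (SD, n = 2) in WC1, a 5.77-fold lower mean in WC1. The log2 fold change, WC1 minus Ctrl on the log2(CPM + 1) scale, was −2.53 ± 0.19 (SE), the 19th lowest of the 14106 genes tested. In TPM, a scale that also corrects for transcript length, Prdx1 ranked 8th among all genes in Ctrl and 119th in WC1.

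Srxn1 (chr2:152105516-152111376, plus strand), which encodes the enzyme that rescues overoxidised peroxiredoxins, had the next lowest fold change. It was at 393 and 347 CPM in the Ctrl libraries and at 102 and 76.4 CPM in the WC1 libraries. The groups did not overlap and the WC1 mean was 4.14-fold lower. The log2 fold change was −2.05 ± 0.16, the 39th lowest of all genes tested.

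Txnrd1 (chr10:82833951-82897712, plus strand), the cytosolic thioredoxin reductase, was measured at 348 and 317 CPM in Ctrl compared to 119 and 111 CPM in WC1. The WC1 mean was 2.89-fold lower, with a log2 fold change of −1.52 ± 0.086. Its substrate Txn1 (chr4:57943373-57956411, minus strand), the cytosolic thioredoxin, was at 511 and 445 CPM in Ctrl compared to 212 and 183 CPM in WC1. The WC1 mean of Txn1 was 2.42-fold lower, with a log2 fold change of −1.27 ± 0.12. In both genes every WC1 library lay below every Ctrl library, and the gap between the groups was several times the gap within either group.

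The other 6 genes lay between −0.41 and 0.34 in log2 fold change. Prdx4 (chrX:155323918-155340754, minus strand), the peroxiredoxin of the secretory pathway, was at 64.2 and 61.5 CPM in Ctrl compared to 50.6 and 43.4 CPM in WC1, a log2 fold change of −0.41 ± 0.095. Prdx2 (chr8:84969587-84974834, plus strand), the close relative of Prdx1, was at 193 and 177 CPM in Ctrl compared to 161 and 142 CPM in WC1. Its log2 fold change was −0.29 ± 0.095. In both genes the WC1 libraries lay below the Ctrl libraries, by far less than in Prdx1.

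Prdx5 and Prdx6 were on the opposite side. Prdx5 (chr19:6906697-6910106, minus strand) was at 209 and 214 CPM in Ctrl compared to 243 and 288 CPM in WC1, a log2 fold change of 0.32 ± 0.10. Prdx6 (chr1:161240112-161251219, minus strand), which also has phospholipase activity, was at 227 and 231 CPM in Ctrl compared to 258 and 325 CPM in WC1, a log2 fold change of 0.34 ± 0.13. In both genes the WC1 libraries lay above the Ctrl libraries but differed from each other by more than the nearer of them differed from Ctrl.

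The mitochondrial pair was nearly level. Prdx3 (chr19:60864051-60874556, minus strand) was at 81.6 and 79.6 CPM in Ctrl compared to 80.7 and 86.4 CPM in WC1, so that the groups overlapped, with a log2 fold change of 0.05 ± 0.070. Txn2 (chr15:77915047-77929006, minus strand), the mitochondrial thioredoxin, was at 113 and 115 CPM in Ctrl compared to 106 and 112 CPM in WC1. Its log2 fold change was −0.07 ± 0.068 in CPM and turned to 0.07 in TPM.

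**Figure D2:**
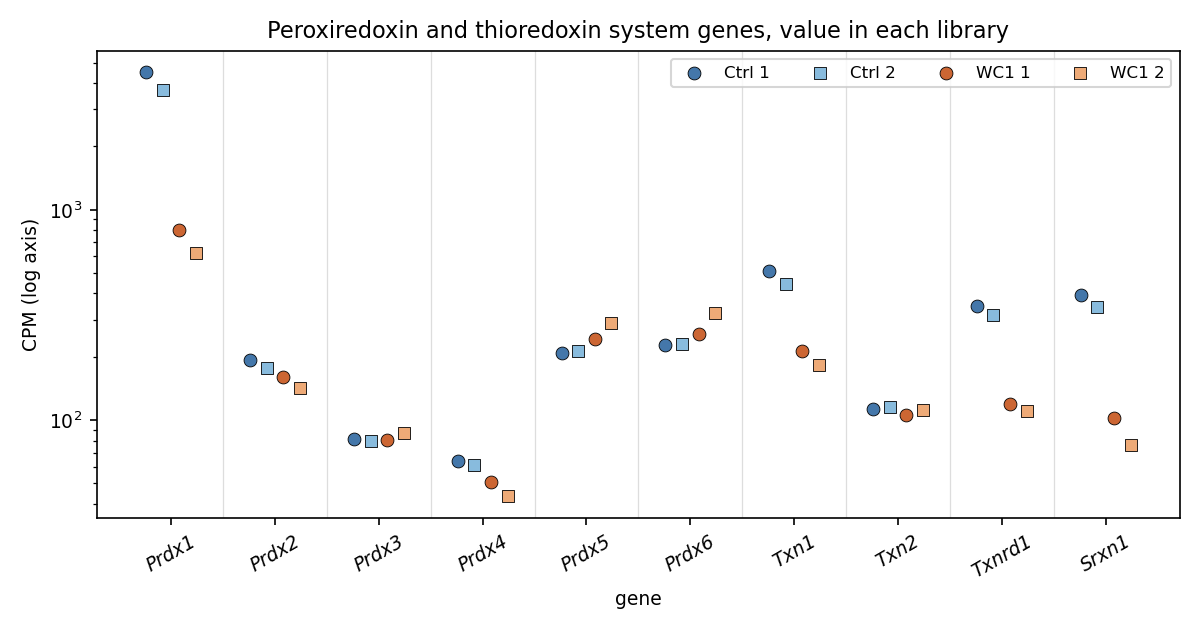
CPM of the 10 genes in each of the 4 libraries, on a log axis; circles are replicate 1 and squares replicate 2, blue Ctrl and orange WC1. The Ctrl points of Prdx1, Txn1, Txnrd1 and Srxn1 stand well above the WC1 points, while those of Prdx3 overlap.

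Over all genes, limma called 1088 of 14106 lower and 1443 higher in WC1 at an adjusted p under 0.05. Among the 10 genes, 5 were called lower (Prdx1, Srxn1, Txnrd1, Txn1 and Prdx4), against a background of 7.71% of genes tested. None of the 10 was called higher, against a background of 10.2%. On the reads recovered from the matrix, DESeq2 called 1 of them higher, against 15.1% of genes tested, and edgeR called 0, against 10.5%. At an unadjusted p under 0.05 limma counted 8 of the 10 in either direction, against 37.8% of genes tested. The groups did not overlap, with WC1 below, in 7 of the 10, against 36.6% of all genes, and with WC1 above in 2 of the 10, against 32.7%. The median log2 fold change of the 10 was −0.35, with −0.02 for all genes tested, and 4 of the 10 were below −1, where 1.62% of all genes lay. Because the genes were chosen on this contrast, nothing is read from these counts or from this median. The 5 calls were lost when either Ctrl library was left out, which gave 0 called lower without Ctrl 1 and 0 without Ctrl 2, where 4 and 6 of the 14106 genes were called lower, and that of Prdx4 was also lost in TPM and without the filter. The fold changes moved less: over all 14 alternative settings Prdx1 lay between −2.70 and −2.33 and Srxn1 between −2.26 and −1.84. In TPM the median of all genes moved up by 0.12, and 77.9% of the calls were in the upward direction, compared to 57.0% in CPM. Relative to that median the TPM fold change was −2.49 for Prdx1 and −0.03 for Txn2.

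**Figure D3:**
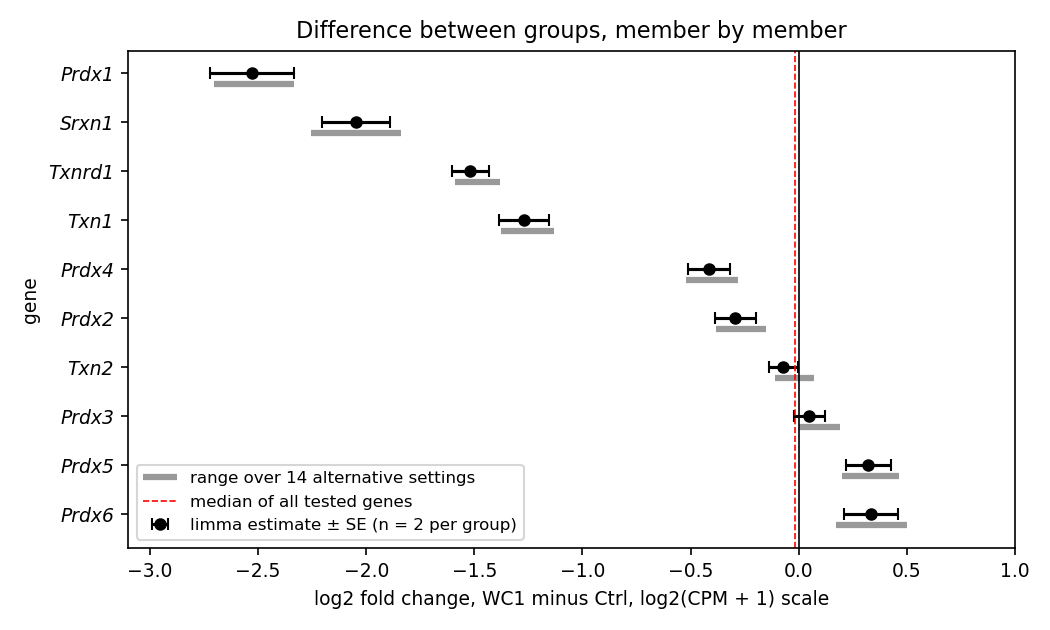
Log2 fold change (WC1 minus Ctrl, log2(CPM + 1) scale) of each of the 10 genes; points are limma estimates with SE bars (n = 2 per group), grey bars the range over 14 alternative settings, and the dashed line the median of all genes tested. Prdx1, Srxn1, Txnrd1 and Txn1 lie below −1 over their whole range, and the ranges of the other 6 lie between −0.52 and 0.50.

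Levels of different genes were compared in TPM, which corrects for transcript length. In Ctrl the order of mean TPM was Prdx1 at 5565 ± 750 (SD, n = 2), Txn1 at 874 ± 79.6, Prdx5 at 590 ± 14.7, Prdx2 at 378 ± 20.4 and Srxn1 at 252 ± 20.4. Below them came Txnrd1 at 187 ± 11.4, Prdx6 at 185 ± 3.76, Txn2 at 171 ± 3.46, Prdx4 at 124 ± 2.96 and Prdx3 at 107 ± 1.18. Of the neighbours in this order, Txnrd1 and Prdx6 did not differ beyond their spread.

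In WC1 the order was Prdx1 at 1062 ± 157 TPM, Prdx5 at 819 ± 117, Txn1 at 398 ± 32.1, Prdx2 at 340 ± 23.3 and Prdx6 at 260 ± 47.7. Txn2 followed at 180 ± 11.1, Prdx3 at 122 ± 8.66, Prdx4 at 102 ± 8.78, Txnrd1 at 71.3 ± 2.15 and Srxn1 at 67.1 ± 12.2. The lowest WC1 value of Prdx1, 951 TPM, was close to the highest of Prdx5, 902 TPM, and the values of Txnrd1 (72.8 and 69.8 TPM) lay within those of Srxn1 (75.8 and 58.5 TPM). Srxn1 went from the 5th of the 10 places in Ctrl to the last in WC1, and Prdx5 from the 3rd to the 2nd.

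The summed TPM of the 6 peroxiredoxins was 7483 and 6415 in the Ctrl libraries and 2716 and 2695 in the WC1 libraries. Without Prdx1 the sum was 1388 and 1380 in Ctrl compared to 1543 and 1744 in WC1, so that the lower total in WC1 was not seen without Prdx1. Prdx1 made up 81.5% and 78.5% of peroxiredoxin TPM in Ctrl and 43.2% and 35.3% in WC1, a mean of 80.0% ± 2.09 (SD, n = 2) compared to 39.2% ± 5.57. The difference of the means, WC1 minus Ctrl, was −40.7 percentage points, and it lay between −44.7 and −36.8 points when any of the 4 libraries was left out. The share of Prdx5 was 7.75% and 9.37% in Ctrl compared to 27.1% and 33.5% in WC1. Since shares add up to the whole, a lower share of Prdx1 raises those of the other peroxiredoxins.

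**Figure D4:**
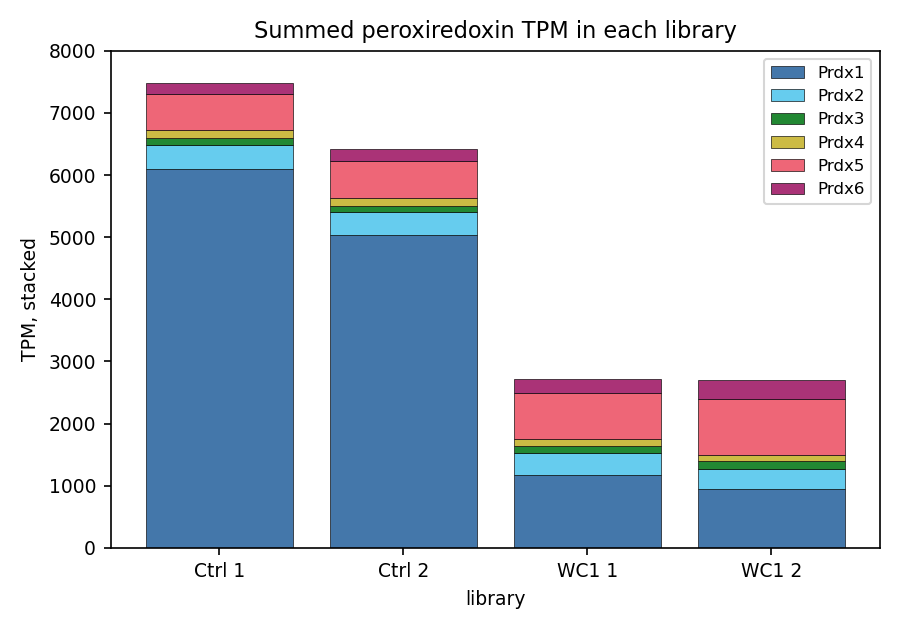
Stacked TPM of the 6 peroxiredoxins in each library. The Ctrl bars reach 7483 and 6415 TPM and the WC1 bars 2716 and 2695 TPM, and the Prdx1 segment is the one that differs most.

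Ratios within a library, taken in TPM, set genes of the system against each other. For the cytosolic pair Prdx1 and Prdx2 there were 15.5 and 13.9 Prdx1 transcripts per Prdx2 transcript in Ctrl and 3.29 and 2.94 in WC1. Txn1 per Txn2 was 5.51 and 4.70 in Ctrl compared to 2.44 and 2.00 in WC1. Txnrd1 per Txnrd2, the mitochondrial reductase, was 8.70 and 8.51 in Ctrl compared to 2.70 and 2.72 in WC1. All 3 ratios were thus lower in both WC1 libraries than in either Ctrl library, the last 2 of them between a cytosolic and a mitochondrial gene. The mitochondrial ratio of Txn2 to Txnrd2 was 7.53 and 8.26 in Ctrl compared to 6.39 and 7.31 in WC1. The ratios of thioredoxin to its reductase and of Prdx1 to sulfiredoxin moved less. Txn1 per Txnrd1 was 4.76 and 4.56 in Ctrl compared to 5.77 and 5.38 in WC1, and Prdx1 per Srxn1 was 22.9 and 21.2 in Ctrl compared to 15.5 and 16.3 in WC1.

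How much of a fold change belongs to a gene alone depends on the reads it shares with others. Of the 50-base windows along the annotated transcripts, 10.9% of those of Prdx1, 8.96% of Prdx2, 2.50% of Txn1 and 0.299% of Prdx6 also occur in transcripts of another gene, and 0% of the windows of the other 6 do. Apart from Prdx6b, listed at 0 in every library, none of those other genes is a row of the matrices, and how the authors' counting treated such reads was not stated in the sources at hand. Prdx2 overlaps Rnaseh2a by 181 bases and Junb by 351 bases, and Prdx5 overlaps Trmt112 by 409 bases, each on the opposite strand. The libraries were directional, and whether the counting used the strand is not given. Txnrd1 contains Eid3 on its own strand, at a mean of 0.175 CPM. The lowest read number of any of the 10 genes in any library was 2734, a depth that bears on counting error only and takes reads as independent molecules.

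The tissue label was checked against cell-type markers, and adipocyte markers were abundant in all 4 libraries. The summed CPM of 8 adipocyte markers was 9656 and 10786 in Ctrl compared to 17338 and 22266 in WC1, with 6 of 8 called higher. Among all genes tested, limma called 10.2% higher and 7.71% lower, the background for this and the following marker counts. The summed CPM of 10 macrophage markers was 11557 and 10490 in Ctrl compared to 6747 and 4663 in WC1, 1.93-fold lower by the means, with 3 of 10 called lower and 9 of 10 fold changes negative. That sum is weighted toward the most abundant markers, and the median log2 fold change of the macrophage list was −0.78. Mast cell markers went further, at 553 and 613 CPM in Ctrl compared to 83.2 and 65.3 CPM in WC1, with 5 of 6 called lower. Fibroblast markers summed to 3558 and 3519 CPM in Ctrl compared to 3102 and 2507 CPM in WC1 with 3 of 6 called lower, and endothelial markers to 372 and 409 CPM in Ctrl compared to 738 and 956 CPM in WC1 with 4 of 5 called higher. No marker of these 5 lists was at 0 in all libraries. The part of these cell types in the differences of the 10 genes was not tested. In bulk tissue fewer cells of a type and less RNA per cell cannot be told apart.

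Erythroid markers summed to between 209 and 342 CPM in Ctrl and between 457 and 491 CPM in WC1, and mesothelial markers to between 80.8 and 110 CPM in Ctrl and between 56.5 and 149 CPM in WC1. B cell markers were at 4.31 and 2.59 CPM in Ctrl compared to 7.24 and 26.4 CPM in WC1, so that WC1 2 stood apart. Markers of T and NK cells (3.98 to 7.81 CPM), neutrophils (5.38 to 18.9 CPM), skeletal muscle (6.62 to 18.0 CPM), brown adipocytes (5.53 to 7.50 CPM) and epididymis (0.127 to 3.24 CPM) were low throughout. The epididymis genes Crisp1, Lcn5 and Lcn8 were at 0 in all 4 libraries. By limma, 1 of 5 tested erythroid markers, 1 of 4 B cell, 1 of 1 neutrophil and 1 of 1 skeletal muscle markers were called higher. Of the 2 brown adipocyte markers tested, 1 was called lower. None of the mesothelial or T and NK cell lists was called, while no epididymis marker passed the filter. The shares over all genes tested were 10.2% called higher and 7.71% called lower.

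Around the 10 genes, 71 further genes of the same and of neighbouring pathways were examined in 8 lists, and 70 of them were tested. Of these, 7 rose, 20 fell and 43 did not pass the test in WC1 compared to Ctrl (limma, adjusted p under 0.05 over all genes), with a median log2 fold change of −0.20. Over all genes tested, 10.2% were called higher and 7.71% lower, so that the share that rose was near the background. Here too the calls depended on the Ctrl libraries, with 0 falling and 0 rising without Ctrl 1, and 1 falling and 0 rising without Ctrl 2. Without WC1 1 the counts were 34 falling and 11 rising, where 19.5% of all genes tested were called lower and 17.2% higher.

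Other NRF2 target genes had the lowest median of the 8 lists, −1.22, with 9 of 15 called lower and 1 called higher. The list was drawn up with earlier results of these libraries known, so the direction of its count is no independent evidence. The lowest p-values were those of 4 genes of glutathione, cystine and haem metabolism. Gclm, the regulatory subunit of the enzyme that starts glutathione synthesis, fell from 116 and 103 CPM to 27.4 and 28.3 CPM, which is −1.93 ± 0.085 in log2 fold change, with a limma adjusted p of 0.0040. Gsr, glutathione reductase, fell from 121 and 109 CPM to 31.3 and 29.2 CPM, which is −1.89 ± 0.083 in log2 fold change, with a limma adjusted p of 0.0040. These changes were of the size seen in Txnrd1 and Srxn1. Hmox1, haem oxygenase, fell from 937 and 965 CPM to 217 and 183 CPM, which is −2.25 ± 0.11 in log2 fold change, with a limma adjusted p of 0.0044. Slc7a11, a subunit of the cystine importer, fell from 9.58 and 9.27 CPM to 0.901 and 1.03 CPM. Its log2 fold change was −2.41 ± 0.11 (limma adjusted p = 0.0040), and because the WC1 values are near the pseudocount it ranged from −3.27 to −1.27 over the alternatives.

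Genes that regulate NRF2 moved by less, with 4 of 8 called lower, 1 called higher and a median of −0.27. Mafg, a small MAF protein that pairs with NRF2, fell by 0.67 on the log2 scale (SE 0.082, limma adjusted p = 0.017). Sqstm1, an autophagy receptor that binds the NRF2 inhibitor KEAP1, fell by 0.55 (SE 0.096, limma adjusted p = 0.028). Nfe2l2, which encodes NRF2 itself, was at 193 and 203 CPM in Ctrl compared to 162 and 148 CPM in WC1 and fell by 0.35 (SE 0.080, limma adjusted p = 0.045). That call was lost in 6 of 14 alternatives, edgeR among them. Nfe2l1, a relative of NRF2, rose by 0.50 (SE 0.11, limma adjusted p = 0.045). These are transcript levels, and the amount and activity of the NRF2 protein were not measured.

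Of the other thioredoxin-family genes, 10 of 11 were tested, 2 fell, 8 did not pass the test and the median was −0.08. Glrx, a cytosolic glutaredoxin, fell by 0.62 (SE 0.14, limma adjusted p = 0.046), and Txndc17, a small thioredoxin-like protein, fell by 0.41 (SE 0.071, limma adjusted p = 0.027). The Glrx call was lost without the filter and in TPM. Among 8 genes of proteins that take electrons from thioredoxin or bind it, 1 fell and 1 rose. These were both methionine sulfoxide reductases: Msra went from 46.8 and 44.5 CPM to 22.1 and 18.5 CPM, −1.14 ± 0.11 in log2 terms with a limma adjusted p of 0.012, and Msrb3 from 50.6 and 58.7 CPM to 84.9 and 98.0 CPM, 0.73 ± 0.11 (limma adjusted p = 0.023). The median of that list was 0.06.

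Genes of oxidative folding in the endoplasmic reticulum, where Prdx4 works, had log2 fold changes between −0.45 and −0.25 in CPM. All 8 were lower in both WC1 libraries than in either Ctrl library, with a median of −0.26, where 36.6% of all genes tested were separated in that direction. In TPM the groups of Pdia4 and Ero1lb, named here after their values were seen, overlapped. Of the 8 genes, 1 passed the test. This was Ero1l, the disulfide-generating oxidase, at −0.29 ± 0.069 (limma adjusted p = 0.047), a call lost in 6 of 14 alternatives. Prdx4 at −0.41 lay within the range of this list. Of 6 genes for making selenoproteins such as Txnrd1, 1 rose and 5 did not pass the test, with a median of −0.03. Sepsecs, the selenocysteine synthase, rose by 0.53 (SE 0.11, limma adjusted p = 0.038), a call lost without the filter and under quantile normalization.

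Other peroxidases and dismutases were mixed, with 1 of 9 called higher, 2 called lower and a median of −0.08. Sod3, the extracellular superoxide dismutase, rose from 273 and 346 CPM to 549 and 719 CPM, a log2 fold change of 1.03 ± 0.18 with a limma adjusted p of 0.028. Gpx3, the secreted glutathione peroxidase, fell by 0.55 (SE 0.10, limma adjusted p = 0.032), and Gpx8, a peroxidase of the endoplasmic reticulum, fell by 0.41 (SE 0.081, limma adjusted p = 0.034). Both calls were lost in TPM and without the filter. Among 6 genes listed for NADPH supply, 2 rose, 1 fell and the median was 0.25. Me1, malic enzyme, rose by 0.69 (SE 0.11, limma adjusted p = 0.023) and Nnt by 0.68 (SE 0.091, limma adjusted p = 0.019), the latter the gene in which this strain is known to carry a deletion, so that its level does not stand for a working enzyme. Pgd, of the pentose phosphate pathway, fell by 0.54 (SE 0.096, limma adjusted p = 0.028).

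**Figure D5:**
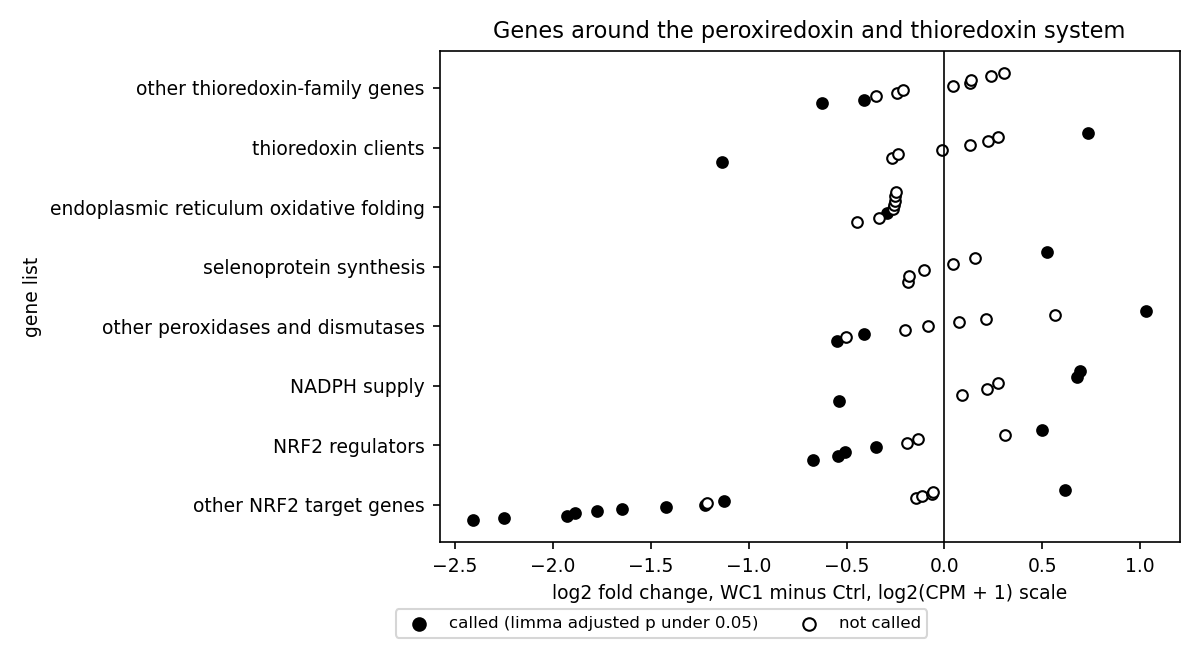
Log2 fold change (WC1 minus Ctrl, log2(CPM + 1) scale) of the 70 tested genes in the 8 lists around the system; filled points are called by limma at an adjusted p under 0.05 and open points are not. The lowest values, down to −2.41, are in the list of other NRF2 target genes.

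The genes whose profile over the 4 libraries was nearest to that of Prdx1 were looked up among 12569 genes with a mean of at least 1 CPM, by the root mean square difference of values centred per gene on the log2(CPM + 1) scale. They were Uchl1, a ubiquitin hydrolase, at 0.045, Ptgr1, a prostaglandin reductase, at 0.065, and Mmp3, a matrix metalloproteinase, at 0.10. Uchl1 was at 68.8 and 60.5 CPM in Ctrl compared to 11.4 and 8.67 CPM in WC1. For Srxn1 the nearest were Gdf15, a stress-related cytokine, at 0.033, Layn, a hyaluronan receptor, at 0.040, and Tuba4a, an alpha tubulin, at 0.047. Layn was at 57.4 and 52.5 CPM in Ctrl compared to 13.9 and 10.15 CPM in WC1. With 4 libraries, likeness of this kind mostly repeats the difference between the groups.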

How the data were processed

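The authors made directional libraries from poly(A) RNA, and the submitters' processing notes name fastp, HISAT2, StringTie and mm10, with no versions. One deposited matrix holds a signal proportional to reads, which the authors call CPM: 100% of its values were whole reads to within 0.01 read, and its columns summed to 97.6% to 105% of the sum that plain CPM gives. The reads recovered came to 71658062 and 90965297 for the Ctrl libraries, compared to 61655738 and 61465029 for WC1. The other deposited matrix holds TPM. Groups were taken from the sample titles.

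A gene was kept if 2 or more libraries held 0.5 CPM or more, the minimum being that of the study (14106 kept, 10315 removed, of which 6289 were at 0 everywhere). WC1 was compared with Ctrl on log2(CPM + 1) by limma 3.58.1 in R 4.3.3 (abundance trend, two-sided, Benjamini-Hochberg over all genes kept, threshold 0.05), a scale that understates the change of low genes. For a single gene, exact permutation of the 4 libraries goes no lower than p = 0.333. The code was tested on simulated data. Libraries of a group differed by more than sampling noise (chi-square divided by its degrees of freedom, 36.9 for Ctrl, 93.4 for WC1), so none was merged.

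The 10 genes, the pathway lists and the marker lists were chosen with earlier results of these data known. All 10 genes are named. In each pathway list the called genes are named, up to the 4 with the smallest p, and marker lists are given by their sums. All pathway genes were found by symbol or synonym (Ero1a and Ero1b under the older symbols Ero1l and Ero1lb), and Trbc2 and Ly6g of the marker lists were not matched. The 14 alternatives were pseudocounts of 0.1 and 5, no filter, a filter at a mean of 5 CPM, the TPM matrix, median-of-ratios scaling, quantile normalization, leaving out each library, a replicate block, and edgeR 4.0.16 and DESeq2 1.42.0 on the recovered reads. Coordinates are from GENCODE M21 (GRCm38) and promoters from RefSeq.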

Additional observations from a re-analysis of the deposited data

How the results depend on the processing

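No fold change of the 10 genes or of the named pathway genes that had been called changed direction under the 14 alternatives. Over the 14 alternatives and the 20 named pathway genes, the call was kept 221 times and lost 59 times. All 20 calls were lost without Ctrl 1 and all but that of Gclm without Ctrl 2, and those of Sod3, Pgd, Sqstm1 and Nfe2l1 also without the filter. Of the fold changes of the 10 genes, 133 stayed within the spread between replicates and 7 moved by more, and that of Txn2, which was not called, turned from −0.07 to 0.07 in TPM. Without the filter on low values 788 genes were called higher and 532 lower over all genes, and 4 pathway genes were called higher and 11 lower. In TPM 2054 genes were called higher and 583 lower over all genes, and 11 pathway genes higher and 14 lower. DESeq2 called 2125 genes higher and 1736 lower over all genes, and 1 of the 10 genes higher and 5 lower. With 1 library left out in turn, the calls over all genes ranged from 2 to 2424 higher and from 4 to 2748 lower, those of the 10 genes from 0 to 2 higher and from 0 to 6 lower, and those of the pathway genes from 0 to 11 higher and from 0 to 34 lower. The low ends came without Ctrl 1 or Ctrl 2 (0 of the 10 genes was called higher without WC1 2 as well), where unadjusted p was under 0.05 in 4 and 5 of the 10 genes and in 18.6% and 22.1% of all genes, and the high ends without WC1 1. Such fits have 3 libraries and take the lone library to vary like the other group. The labels do not say that replicate numbers pair libraries, and the differences between replicates 1 and 2 of the groups correlated at 0.194 over 14106 genes in 2 pairs. A fit with the replicate block called 1769 genes higher and 1497 lower over all genes, 6 of the 10 genes lower, and 8 pathway genes higher and 21 lower. A count of 3 reads came to at most 0.0492 CPM, and the effect of depth on the calls was not tested.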

Other observations

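Pathway genes beyond the 4 named per list also passed the test, and are named here after their values were seen. Nqo1, a quinone reductase, fell from 16.3 and 14.2 CPM in Ctrl to 3.75 and 3.72 CPM in WC1, which is −1.78 ± 0.11 in log2 fold change, with a limma adjusted p of 0.0069. Blvrb, a biliverdin reductase, fell by 1.65 (limma adjusted p = 0.0087), and Gclc, the catalytic subunit of the enzyme of glutathione synthesis, fell by 1.13 (limma adjusted p = 0.0066). Abcc1, an exporter of glutathione conjugates, fell by 1.22 (limma adjusted p = 0.0078). Of the ferritin chains, Fth1 fell by 1.42 (limma adjusted p = 0.020), while Ftl1, at 15000 and 13250 CPM in Ctrl and 6949 and 5314 CPM in WC1, was at −1.21 ± 0.33 and did not pass (limma adjusted p = 0.064). Aox1, aldehyde oxidase, rose by 0.62 (limma adjusted p = 0.014). Bach1, a repressor that competes with NRF2, fell by 0.51 (limma adjusted p = 0.047). The 4 remaining genes of the NRF2 target list, Osgin1, Ugdh, Ephx1 and Gstm1, had overlapping groups and log2 fold changes between −0.15 and −0.06.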
